A study of Mus musculus with 4 samples.

Results

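The nuclear factor I family consists of 4 genes in the mouse, *Nfia*, *Nfib*, *Nfic* and *Nfix*, and these 4 were taken by symbol from the 32285 genes counted in each library. Single-cell RNA sequencing had been applied to cells of the telencephalon of C57BL/6 mice that were sorted for tdTomato fluorescence at postnatal day 5. Control mice carried Nestin-CreERT2, the tdTomato reporter and Chd8+/+, and mutant mice carried the same Nestin-CreERT2 and reporter with Chd8+/F. Tamoxifen was given at the midfetal stage in both genotypes, so that control cells had also undergone Cre induction. Nestin-CreERT2 acts in neural progenitors, so the reporter is meant to mark the cells that descend from them. Each genotype had 2 libraries, numbered replicate 1 and replicate 2, and each library pooled cells of 3 mice. The values of single mice are therefore not known, and the spread between libraries is that of 2 pools per genotype.

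NFI proteins bind DNA as dimers through a conserved domain at the amino-terminal end and can activate or repress transcription. NFIA and NFIB are known for switching on astrocyte genes in the developing brain together with SOX9, and NFIA also acts in oligodendrocyte precursors (OPCs). NFIB and NFIX are known for their part in the maturation of cortical progenitors and their neurons, whereas less is known of NFIC in the brain, its best described role being in tooth roots.

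The kinship of the 4 genes is visible in their second exon, which had 532 bases in each of them and was coding throughout. In the alignment without gaps, 351 of these 532 bases were the same in all 4 genes, and identity between 2 members ran from 75.8% for *Nfia* and *Nfic* to 82.0% for *Nfic* and *Nfix*. A stretch of 60 bases from this exon is shown, chosen as the one with the most bases shared by all 4 genes. It also holds all but the last base of the longest run shared by 2 members. Capitals mark the bases that differ in at least 1 of the 4. The sequences are those of the coding strand in mm10, at chr4:97783134-97783193 (plus strand) for *Nfia*, chr4:82498658-82498717 (minus strand) for *Nfib*, chr10:81420687-81420746 (minus strand) for *Nfic* and chr8:84772204-84772263 (minus strand) for *Nfix*.
Nfia: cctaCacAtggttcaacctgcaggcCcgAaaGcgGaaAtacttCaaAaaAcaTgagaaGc
Nfib: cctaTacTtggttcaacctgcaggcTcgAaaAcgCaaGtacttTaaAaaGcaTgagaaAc
Nfic: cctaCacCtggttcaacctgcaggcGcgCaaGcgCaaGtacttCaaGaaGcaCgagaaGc
Nfix: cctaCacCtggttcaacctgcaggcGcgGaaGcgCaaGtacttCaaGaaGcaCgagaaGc
Of these 60 bases, 48 were shared by all 4, the highest number by the choice of the stretch. The longest identical run between the transcripts of 2 members was 32 bases, in exon 2 of *Nfic* and *Nfix*, and the longest run in any other pair was 18 to 21 bases.

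The genes differ much more in extent than in this exon. *Nfia* (ENSMUSG00000028565, chr4:97772734-98118874, plus strand) held 335250 intronic bases and *Nfib* (ENSMUSG00000008575, chr4:82290173-82705750, minus strand) 400621. *Nfix* (ENSMUSG00000001911, chr8:84699876-84800344, minus strand) held 93118 intronic bases and *Nfic* (ENSMUSG00000055053, chr10:81396186-81455635, minus strand) 52820. Replicate 1 was counted with Cell Ranger 7.0.0 and replicate 2 with Cell Ranger 5.0.1 according to the file headers, so that software and replicate cannot be told apart, and whether intronic reads were counted is not given in the sources used here. For this reason genotypes were also compared within each replicate, and each test compared a level only with levels of the same gene. Totals, ratios and plots that set members side by side describe the counts and were not adjusted for intronic bases.

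After removal of cells with few or very many unique molecular identifiers (UMIs), few genes or a high mitochondrial share, 17623 of 27742 barcodes were kept, from 2973 to 5710 per library, with a median of 11497 to 11837 UMIs per cell. Replicate 2 stood apart, since 37.8% and 44.0% of its barcodes exceeded the mitochondrial limit of 10% compared with 9.38% and 12.3% in replicate 1. Pairs of libraries shared between 2 and 15 kept barcodes. Clustering gave 49 clusters, of which 43 received a name from marker genes that did not include the *Nfi* genes, and 19 drew over 90% of their cells from 1 replicate. The names stand for cells that resemble a type, and 14 such types had at least 20 cells in every library. Astroglia comprised astrocytes, dividing astrocytes and cells resembling subventricular stem cells. The oligodendrocyte lineage comprised OPCs, dividing OPCs, committed OPCs and oligodendrocytes. The neuronal lineage comprised inhibitory neurons, dividing inhibitory-lineage cells, dividing and other excitatory precursors, and excitatory neurons. Cells outside these lineages were also sorted, among them 264 microglia, which are known to come from the yolk sac, and 570 pericytes.

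*Chd8* itself, which encodes the chromatin remodeler altered in the mutant, was counted at 61.7 CPM (counts-per-million, from UMIs summed over the cells of a library) in the control and 68.7 CPM in the mutant of replicate 1, and at 89.8 and 94.9 CPM in replicate 2. The summed level was thus no lower in either mutant library. Counts at the 3′ end of a transcript do not report on a deletion elsewhere in the gene, and these values therefore do not check the genotype.

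The 4 members gave 655587 UMIs in the kept cells, comprising 210126 for *Nfia*, 296467 for *Nfib*, 14286 for *Nfic* and 134708 for *Nfix*. Neuronal-lineage cells contributed 292116 of these UMIs, astroglia 219715 and the oligodendrocyte lineage 43698. The members separated the lineages in different ways. *Nfib* and *Nfix* were several times more abundant in the neuronal lineage as a whole than in astroglia in every library. *Nfia* was abundant in both, and all 4 members were lowest in the oligodendrocyte lineage.

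*Nfib* in the neuronal lineage was at 3140 CPM (control) and 3380 CPM (mutant) in replicate 1 and at 3504 and 4356 CPM in replicate 2. In astroglia the same gene was at 1033, 1089, 777 and 830 CPM in this order of libraries. In the oligodendrocyte lineage it was at 439, 431, 411 and 450 CPM. The 3 sets of values did not overlap. In edgeR's quasi-likelihood test with the library as a block, *Nfib* was higher in the neuronal lineage than in astroglia by 1.83 ± 0.124 on the log2 scale (SE, adjusted p = 9.00e-08), and higher in astroglia than in the oligodendrocyte lineage by 1.26 ± 0.122 (adjusted p = 3.05e-06). These adjusted p-values were computed by the Benjamini-Hochberg method over 17315 genes.

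*Nfix* had a similar order. Its levels in the neuronal lineage were 1215, 1136, 2164 and 2568 CPM in control and mutant of replicate 1 and control and mutant of replicate 2. In astroglia they were 431, 404, 428 and 491 CPM, and in the oligodendrocyte lineage 214, 169, 210 and 253 CPM. The lineages did not overlap, and neuronal cells of replicate 2 stood above those of replicate 1. The excess over astrocytes was unequal between neuronal types. It was 0.66 to 0.87 on the log2 scale across libraries in inhibitory neurons and 2.38 to 3.24 in excitatory neurons. *Nfix* was higher in the neuronal lineage than in astroglia by 1.82 ± 0.165 (adjusted p = 1.12e-06 in edgeR). The mean log2 differences were 1.49 in replicate 1 and 2.36 in replicate 2. It was higher in astroglia than in the oligodendrocyte lineage by 1.23 ± 0.163 (adjusted p = 4.44e-05 in edgeR).

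*Nfia* did not rank astroglia and the neuronal lineage as a whole in the same way in both replicates. In astroglia it was at 1434 and 1432 CPM in replicate 1 but at 509 and 674 CPM in replicate 2. In the neuronal lineage the 4 libraries gave 1259, 1289, 844 and 1147 CPM. Astroglia therefore exceeded the neuronal lineage in both libraries of replicate 1, and the reverse held in both libraries of replicate 2, with mean log2 differences of neuronal lineage over astroglia of -0.17 and 0.75. The neuronal lineage mixes types of opposite direction, however. *Nfia* was lower in inhibitory neurons than in astrocytes in each library (-1.19 to -0.96 on the log2 scale) and higher in excitatory neurons (0.38 to 1.49). The mean difference from astrocytes was -1.07 in both replicates for inhibitory neurons. For excitatory neurons it was 0.50 in replicate 1 and 1.45 in replicate 2. Inhibitory neurons numbered 1219, 1041, 278 and 273 cells and excitatory neurons 417, 290, 117 and 139 cells in these libraries, so their proportion also differed between replicates. The cause of the changed order was not tested. The pooled difference of 0.16 ± 0.155 did not pass the test (adjusted p = 0.378 in edgeR). In the oligodendrocyte lineage *Nfia* was at 548, 511, 283 and 397 CPM, below both other lineages in each library, and astroglia exceeded it by 1.30 ± 0.157 (adjusted p = 1.99e-05).

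*Nfic* was detected at far fewer UMIs. It was at 61.5, 61.8, 69.9 and 77.5 CPM in astroglia, 49.8, 49.4, 85.5 and 98.5 CPM in the neuronal lineage and 30.9, 29.1, 37.2 and 46.1 CPM in the oligodendrocyte lineage, again as control and mutant of replicate 1 and then of replicate 2. As for *Nfia*, the order of astroglia and neuronal lineage differed between replicates (mean log2 difference -0.31 in replicate 1 and 0.32 in replicate 2), and the pooled difference of -0.13 ± 0.120 did not pass (adjusted p = 0.361 in edgeR), although it did without the mutant library of replicate 2 (-0.29, adjusted p = 0.0490). Inhibitory neurons held less *Nfic* than astrocytes in each library (-1.40 to -0.85), whereas excitatory neurons were lower in replicate 1 and higher in replicate 2 (-0.37 to 0.22). The excess of astroglia over the oligodendrocyte lineage was 1.09 ± 0.124 (adjusted p = 1.24e-05).

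Compared directly with the oligodendrocyte lineage, the neuronal lineage was higher in all 4 members, by 1.46 ± 0.158 for *Nfia*, 3.09 ± 0.130 for *Nfib*, 0.96 ± 0.127 for *Nfic* and 3.05 ± 0.173 for *Nfix* (adjusted p between 4.02e-09 and 4.59e-05 in edgeR). Such differences are common between lineages. Of all genes tested, 59.7% were called between the neuronal and oligodendrocyte lineages, 61.7% between astroglia and the oligodendrocyte lineage and 73.2% between the neuronal lineage and astroglia, where 2 of the 4 members were called. By direction, 30.3% were higher and 29.4% lower in the neuronal than in the oligodendrocyte lineage, 30.7% and 31.0% in astroglia than in the oligodendrocyte lineage, and 37.3% and 35.9% in the neuronal lineage than in astroglia. Without scaling beyond library size the median of all genes moved to 0.16 for the neuronal lineage over astroglia and to -0.17 for astroglia over the oligodendrocyte lineage, and each *Nfi* call and direction was kept.

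**Figure D1:**
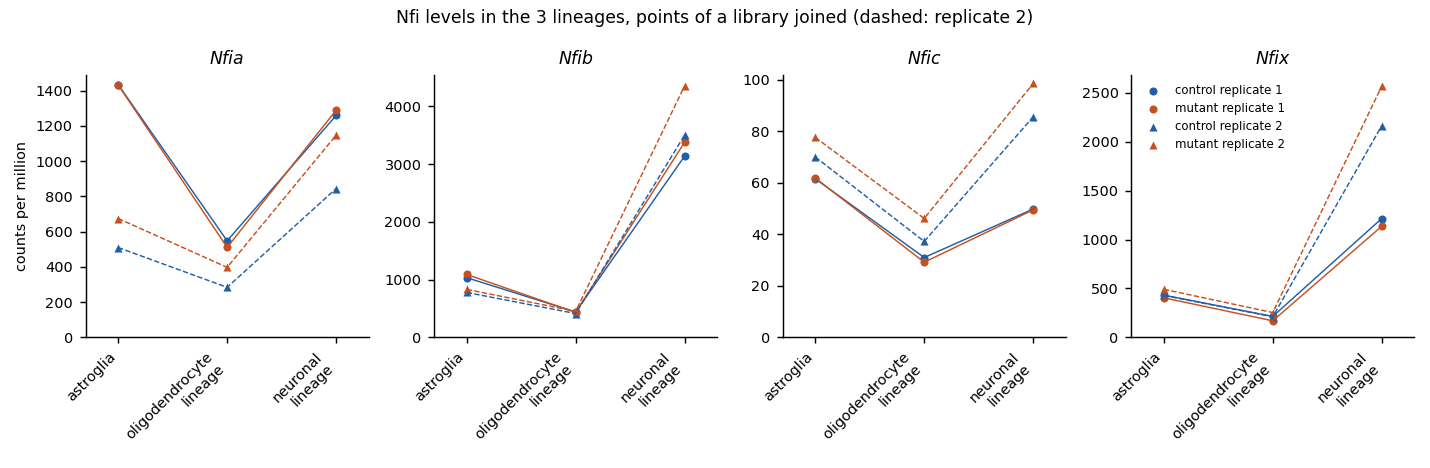
Level of each *Nfi* gene, in CPM on a linear axis from 0, in astroglia, the oligodendrocyte lineage and the neuronal lineage; each point is 1 library, lines join the points of a library, and dashed lines mark replicate 2. *Nfib* and *Nfix* rise steeply in the neuronal lineage, whereas the *Nfia* values of replicate 1 and replicate 2 are apart in astroglia (1434 and 1432 against 509 and 674 CPM).

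Within the neuronal lineage, the excitatory cells carried the larger amounts. Excitatory precursors ranked first among the 14 types for *Nfia*, *Nfib* and *Nfix*. *Nfib* was at 5471, 5889, 5699 and 7035 CPM there and at 4227, 5394, 5612 and 6338 CPM in excitatory neurons. Inhibitory neurons held 2604, 2661, 2115 and 2467 CPM, so that every excitatory value lay above every inhibitory one at the level of types. The excitatory cluster with *Neurod6* and *Unc5d* among its leading genes was an exception, at 2115 and 2526 CPM in replicate 1. These values, for control and mutant, lay below those of inhibitory neurons in the same libraries. For *Nfib* the excitatory neurons exceeded inhibitory neurons by 1.10 ± 0.117 (adjusted p = 1.83e-10 in edgeR over 14094 genes), and 40.3% of all genes were called in this comparison. The differences were 2.02 ± 0.141 for *Nfia*, 0.95 ± 0.110 for *Nfic* and 2.06 ± 0.127 for *Nfix*, each called (adjusted p at most 2.18e-09). The comparisons of 2 types given here and below were chosen after the levels had been seen. They came from 1 fit of 11 types, and their error was pooled over these types.

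Among dividing excitatory precursors, excitatory precursors and excitatory neurons, the members moved in different directions. Excitatory precursors were higher than dividing precursors in *Nfib* by 0.70 ± 0.116 and in *Nfix* by 0.85 ± 0.124 (adjusted p = 5.57e-06 and 5.95e-07 in edgeR). They were lower in *Nfic*, by -0.46 ± 0.102 (adjusted p = 0.000414), while *Nfia* gave 0.31 ± 0.136 (adjusted p = 0.0781, and 0.0208 without the control library of replicate 1). Of all genes, 28.9% were called in this comparison. From precursors to neurons *Nfic* was lower again, by -1.27 ± 0.108 (adjusted p = 1.15e-12), against 35.0% of genes called. *Nfic* thus stood at 143, 153, 198 and 261 CPM in dividing precursors, 126, 118, 124 and 170 CPM in precursors and 41.1, 47.9, 64.8 and 72.8 CPM in neurons, with neurons below both precursor groups in each library. *Nfib* and *Nfia* differed between precursors and neurons by -0.13 ± 0.115 and -0.26 ± 0.135, which did not pass. *Nfix* gave -0.32 ± 0.122 (adjusted p = 0.0381), a call lost with DESeq2 (-0.25, adjusted p = 0.148), with its size factors in edgeR, and when any of the 4 libraries was left out (-0.31 to -0.21).

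In the inhibitory lineage, some members were lower in neurons than in dividing cells. *Nfia* was at 1276, 1156, 465 and 634 CPM in dividing inhibitory-lineage cells and at 643, 634, 255 and 283 CPM in inhibitory neurons, a difference of -1.01 ± 0.139 (adjusted p = 7.37e-08 in edgeR, 45.5% of genes called). Inhibitory neurons were the lower of the pair in each library. *Nfic* was lower by -1.18 ± 0.112 (adjusted p = 7.97e-12) and *Nfix* by -0.38 ± 0.125 (adjusted p = 0.0104). The *Nfix* call was lost without the mutant library of replicate 1 (-0.36, adjusted p = 0.0559) and without the control library of replicate 2 (-0.32, adjusted p = 0.0675). *Nfib* was not lower and gave 0.25 ± 0.116 (adjusted p = 0.0809), higher in inhibitory neurons in 4 of 4 libraries, and it passed the test with DESeq2's size factors (adjusted p = 0.0471) and without scaling (adjusted p = 0.0222).

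The balance of *Nfib* and *Nfia* followed from these levels. Inhibitory neurons held 4.05 to 8.71 *Nfib* UMIs for each *Nfia* UMI across libraries, and excitatory neurons held 2.44 to 4.25. Astrocytes held 0.701 to 1.48, OPCs 0.859 to 1.44 and oligodendrocytes 0.512 to 1.15. In each of these types the lower ratios came from replicate 1, in which *Nfia* was counted higher.

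**Figure D2:**
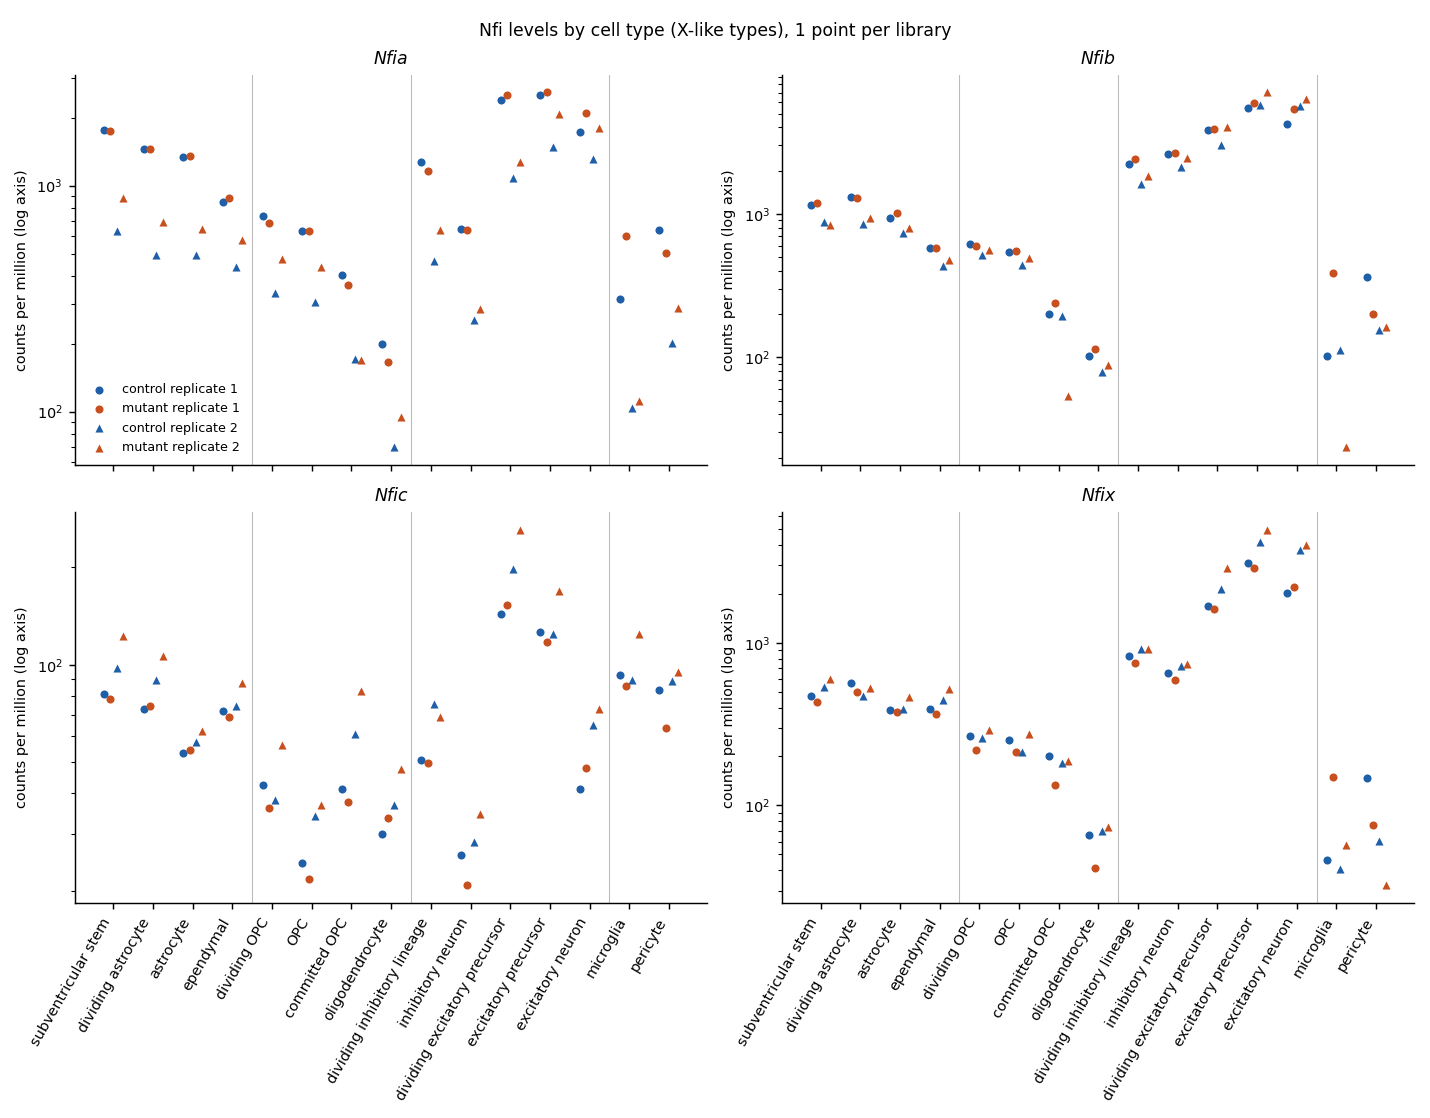
Level of each *Nfi* gene by cell type in CPM on a log axis, with 1 point per library (color marks genotype, circles replicate 1 and triangles replicate 2); vertical lines separate astroglia with ependymal cells, the oligodendrocyte lineage, the neuronal lineage and cells outside them. Committed OPCs had under 20 cells in both libraries of replicate 2 (19 and 16), and the fall from OPCs to oligodendrocytes in *Nfia*, *Nfib* and *Nfix* contrasts with *Nfic*.

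In the oligodendrocyte lineage, mature cells held little of 3 members. *Nfib* was at 544, 555, 440 and 492 CPM in OPCs and at 102, 115, 79.6 and 88.0 CPM in oligodendrocytes. By mean log2 level they were last of the 14 types, but microglia, the next type, differed by 0.09 with an SD of 1.52 over the libraries and were lower in the mutant of replicate 2 (23.5 CPM). *Nfia* was at 633, 629, 306 and 436 CPM in OPCs and at 199, 165, 69.4 and 94.8 CPM in oligodendrocytes. *Nfix* was at 251, 213, 213 and 275 CPM in OPCs and at 65.9, 41.2, 69.4 and 73.3 CPM in oligodendrocytes. For each of these genes the oligodendrocyte values lay below all OPC values. The differences were -2.16 ± 0.136 for *Nfib* (adjusted p = 1.64e-17 in edgeR), -1.73 ± 0.155 for *Nfia* (adjusted p = 8.29e-13) and -1.76 ± 0.152 for *Nfix* (adjusted p = 3.09e-13).

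*Nfic* went the other way. It was at 24.3, 21.7, 34.0 and 36.9 CPM in OPCs and at 29.99, 33.5, 36.7 and 47.4 CPM in oligodendrocytes, higher in 4 of 4 libraries although the values of the groups overlapped. The difference was 0.59 ± 0.123 (adjusted p = 7.14e-05 in edgeR) and fell to 0.37 without scaling beyond library size (adjusted p = 0.00784). Of all genes 54.3% were called between oligodendrocytes and OPCs, of which 23.2% of genes were higher in oligodendrocytes and 31.1% lower. The median of all genes was -0.12 with scaling and -0.33 without. In the control of replicate 2, which had 25 oligodendrocytes, *Nfic* was higher in them by 0.11. Their *Nfic* levels lay below the 93.0, 85.7, 89.8 and 124 CPM of microglia in the same libraries. Free RNA was not tested as a source of these counts.

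Committed OPCs, which express *Gpr17* and stand between OPCs and oligodendrocytes in maturation, lay between them for *Nfia* with 404 CPM in the control and 362 CPM in the mutant of replicate 1. *Nfib* at 200 and 239 CPM and *Nfix* at 202 and 133 CPM also lay between the levels of OPCs and oligodendrocytes in these libraries. *Nfic* was at 41.2 and 37.6 CPM, above both. Dividing OPCs differed from other OPCs in *Nfic*, which was higher by 0.60 ± 0.110 (adjusted p = 3.89e-05 in edgeR, 24.9% of genes called). The other members gave 0.15 ± 0.137, 0.17 ± 0.118 and 0.12 ± 0.128 for *Nfia*, *Nfib* and *Nfix*, and did not pass.

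Astroglia showed smaller differences among themselves. *Nfia* was at 1769, 1754, 633 and 879 CPM in subventricular stem-like cells and at 1333, 1355, 495 and 644 CPM in astrocytes. *Nfib* was at 1144, 1193, 882 and 839 CPM in the former and at 935, 1013, 731 and 794 CPM in the latter. In CPM, astrocytes were thus the lower type in each library, but under the scaling of the test the differences were -0.13 ± 0.134 for *Nfia*, 0.04 ± 0.116 for *Nfib* and -0.05 ± 0.123 for *Nfix*, and did not pass. Without that scaling *Nfia* and *Nfix* passed as lower in astrocytes (-0.40 and -0.32, adjusted p = 0.0101 and 0.0241), the sign of *Nfib* turned (-0.23), and the median of all genes moved from 0.08 to -0.17. *Nfic* was lower in astrocytes with scaling, by -0.44 ± 0.0898 (adjusted p = 0.000104 in edgeR, 40.8% of genes called). The stem-like type and the astrocytes were each made up of unlike clusters in the 2 replicates. Libraries held 419, 313, 182 and 121 stem-like cells, in the order used above. Of these, a cluster led by *Veph1* gave 273, 190, 3 and 4. A cluster with *Sfrp1* among its leading genes gave 92, 88, 150 and 94. Among astrocytes, a cluster led by *Atp13a4* gave 455, 417, 0 and 0 cells, and another led by *Myorg* gave 16, 26, 348 and 336. Both sides of this comparison were therefore different mixtures in each replicate.

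Dividing astrocytes exceeded other astrocytes in *Nfic*, by 0.44 ± 0.0874 (adjusted p = 4.19e-05 in edgeR), with 52.0% of genes called. Their *Nfic* levels were 72.8, 74.6, 89.4 and 107 CPM, against 53.1, 54.6, 57.7 and 62.4 CPM in astrocytes, without overlap. Here too the astrocytes were of unlike clusters in the 2 replicates. *Nfia*, *Nfib* and *Nfix* gave -0.04 ± 0.133, 0.21 ± 0.115 and 0.23 ± 0.123 in this comparison and did not pass, although *Nfib* and *Nfix* passed without scaling (0.33 and 0.36) and without the mutant library of replicate 2 (0.26 and 0.32), *Nfib* also without the mutant library of replicate 1 (0.35). Higher *Nfic* in dividing cells was therefore measured in astrocytes and OPCs, and inhibitory-lineage and excitatory cells had the same direction in the comparisons above.

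Neighbors in the order of types were not always separable. For *Nfia*, excitatory neurons and dividing excitatory precursors, ranked next to each other, differed by a mean of 0.01 on the log2 scale with an SD of 0.45 over the 4 libraries. OPCs and inhibitory neurons differed by 0.21 with an SD of 0.30. For *Nfib*, ependymal cells and OPCs differed by 0.02 with an SD of 0.06, and for *Nfix*, dividing astrocytes and stem-like cells differed by 0.03 with an SD of 0.24. The step from dividing inhibitory-lineage cells to dividing astrocytes in *Nfib*, in contrast, was 0.89 with an SD of 0.10. Microglia ranked next to excitatory precursors for *Nfic* with 93.0, 85.7, 89.8 and 124 CPM, and free RNA was not tested as a source of these counts.

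**Figure D3:**
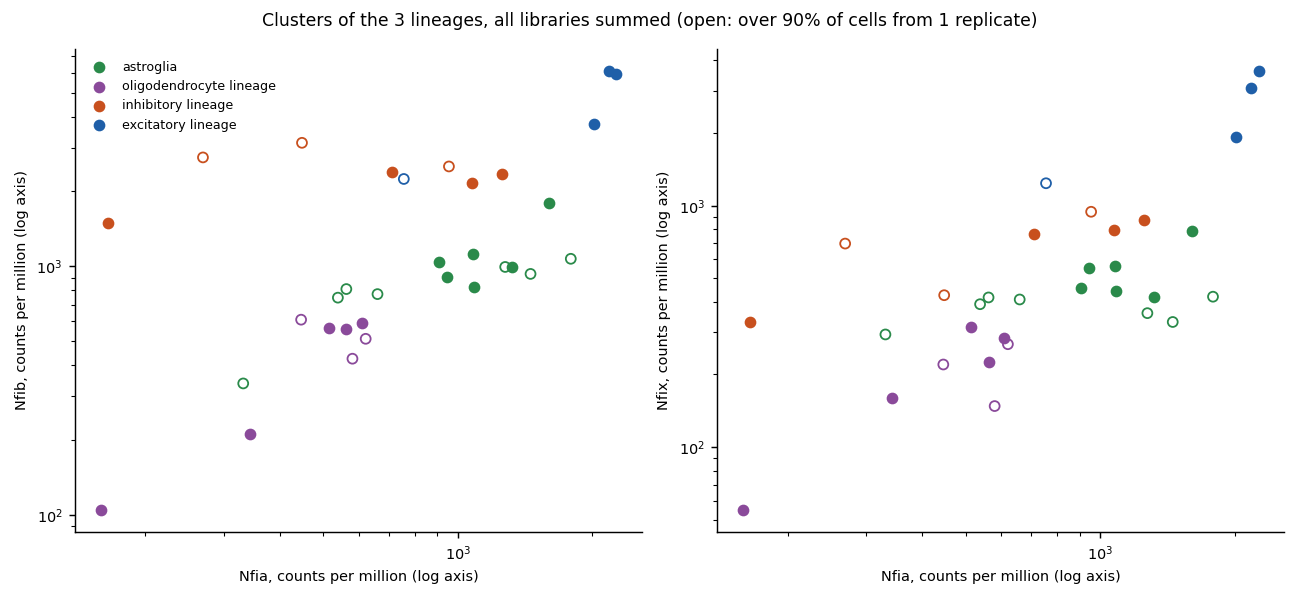
*Nfib* (left) and *Nfix* (right) against *Nfia* in each cluster of the 3 lineages, in CPM summed over libraries on log axes; open circles are clusters with over 90% of cells from 1 replicate. On these log axes inhibitory-lineage clusters spread more along *Nfia* than along *Nfib*, and excitatory clusters lie at the top right except for 1 with *Neurod6* and *Unc5d* among its leading genes.

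Clusters within a type differed as well. Among inhibitory neurons, *Nfia* was at 66.5 to 196 CPM across libraries in a cluster led by *Foxp2*, *Bcl11b* and *Rarb*, genes of striatal projection neurons, and its *Nfib* was at 1103 to 1551 CPM. In the cluster with *Dlx1as*, *Dlx5* and *Sp9* among its leading genes, *Nfia* was at 470 to 990 CPM and *Nfib* at 1413 to 2601 CPM. One cluster was led by *Prokr2*, which encodes a prokineticin receptor known from neuroblasts of the olfactory bulb. It held 156 to 479 CPM of *Nfia* and 2324 to 3189 CPM of *Nfib* in the 3 libraries with at least 20 of its cells. The lowest values were those of 22 cells in the control of replicate 2. Another cluster led by *Prokr2* had cells in replicate 2 only. Its control and mutant held 250 and 284 CPM of *Nfia* and 2550 and 2885 CPM of *Nfib*. Clusters were formed from other genes, and these values are given as a description without a test.

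Excitatory neurons fell into 2 clusters of unlike *Nfi* content. The cluster with *Neurod1*, *Calb2* and *Sema3c* held 5729, 6209, 5905 and 6627 CPM of *Nfib* and 2468, 2424, 1383 and 1890 CPM of *Nfia*. The cluster with *Neurod6* and *Unc5d* among its leading genes held 2115 and 2526 CPM of *Nfib* and 702 and 926 CPM of *Nfia* in the control and mutant of replicate 1, which gave most of its cells. Among stem-like cells, a cluster led by *Wnt8b*, a Wnt ligand of the medial cortical wall, held 1268 to 2140 CPM of *Nfib*, while another with *Sfrp1* among its leading genes held 739 to 931 CPM. By marker score the latter cluster was closest to ependymal cells (3.89) and then astrocytes (3.55). It was named stem-like from its leading genes.

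Detection in single cells was compared after each cell had been thinned to 2000 UMIs. *Nfib* was found in 95.6% ± 2.0 of neuronal-lineage cells (SD, n = 4 libraries), 78.7% ± 3.76 of astroglia and 51.9% ± 3.56 of the oligodendrocyte lineage. *Nfia* was found in 62.3% ± 5.30, 77.9% ± 14.3 and 52.8% ± 8.36 of these cells. In astroglia and the neuronal lineage *Nfix* was found in 54.0% ± 1.58 and 74.2% ± 6.62 of cells, and *Nfic* in 11.7% ± 1.52 and 9.16% ± 3.28. Without thinning *Nfib* was found in 98.0% of neuronal-lineage cells and 98.3% of astroglia, and *Nfic* in 31.5% and 53.2%. Oligodendrocytes had thinned shares of 19.9% ± 8.10 for *Nfia* and 15.4% ± 5.76 for *Nfib*, compared with 28.1% ± 6.96 and 11.8% ± 6.71 in microglia. For *Nfic* the shares were 6.84% ± 0.918 in oligodendrocytes and 15.6% ± 7.22 in microglia. These shares were below or within the spread of those in microglia, and no expression in oligodendrocytes is read from them. Free RNA was not tested as a source of the counts in either type.

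Cells with several members at once were most frequent among excitatory precursors. After thinning, at least 3 of the 4 members were found in 91.2% to 98.5% of excitatory precursors across libraries, in 24.1% to 36.8% of inhibitory neurons and in 8.99% to 17.8% of OPCs. In oligodendrocytes the share was 0% to 1.77%, and 52.4% to 61.1% of these cells had no UMI of any member. Microglia, as a level for comparison, had 3 or more members in 0% to 5.88% of cells.

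**Figure D4:**
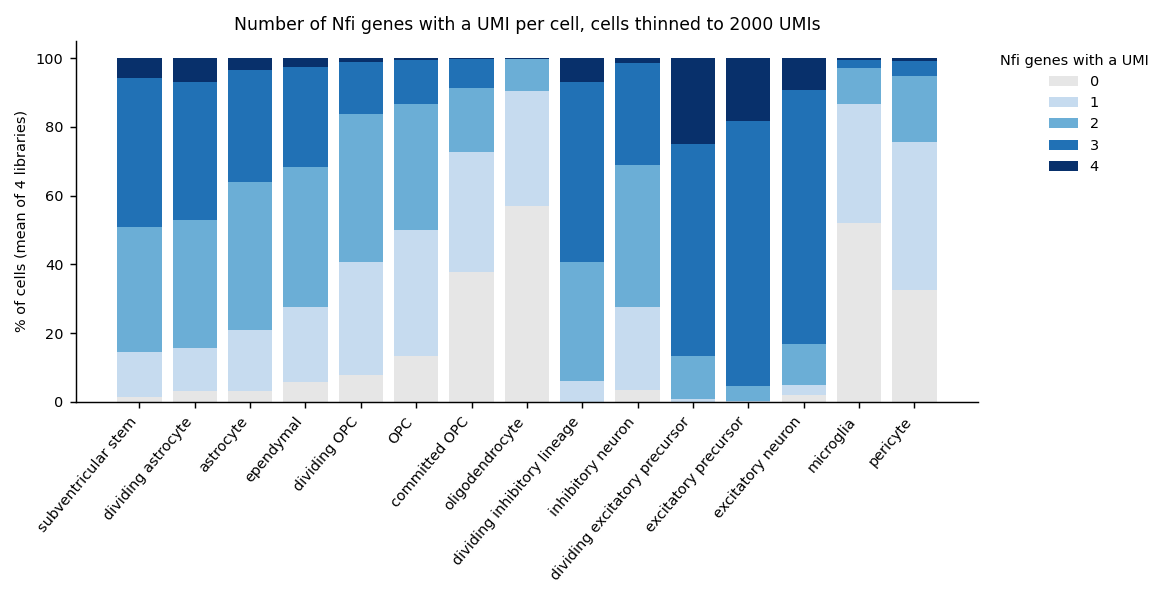
Share of cells in percent, as the mean of 4 libraries, with a UMI of 0, 1, 2, 3 or 4 *Nfi* genes after thinning to 2000 UMIs per cell, by cell type. Dark segments (3 or 4 members) fill nearly all of the excitatory precursor bar and almost none of the oligodendrocyte bar.

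Across the 14 types the profiles of 3 members ran close together. The correlation of log2 levels, averaged over the 4 libraries, was 0.97 for *Nfib* and *Nfix*, 0.90 for *Nfia* and *Nfix* and 0.88 for *Nfia* and *Nfib*. *Nfic* was less like the others, with 0.52 to *Nfia*, 0.33 to *Nfix* and 0.25 to *Nfib*. These are descriptions over 14 types that share libraries. Among 10718 genes other than the members themselves, the profile closest to *Nfia* was that of *Lhx2* (0.95), a homeobox factor of the dorsal telencephalon, followed by *Gm11266* (0.93), *Mir99ahg* (0.93), *Emx2* (0.91), another dorsal homeobox factor, and *Zbtb20* (0.91).

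Outside the family, the genes closest to *Nfib* were *Afdn* (0.94), which encodes the junction protein afadin, *Skida1* (0.93), *Sel1l3* (0.93), *C530008M17Rik* (0.92) and the ephrin receptor gene *Epha3* (0.92). Closest to *Nfix* outside the family were *Gm11266* (0.94), *Zbtb20* (0.94), *Epha3* (0.93), *A330084C13Rik* (0.92) and *Lrp8* (0.92), which encodes a reelin receptor. *Gm11266* lies inside *Nfib*. For *Nfic* the nearest were the kinase gene *Vrk2* (0.86), *Tgif2* (0.85), *Exosc5* (0.79), *Plekhf2* (0.78) and the Hippo kinase gene *Stk3* (0.77), and no gene exceeded 0.9.

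Genes known to act with NFI, or to be regulated by it, were examined as lists. Unlike the *Nfi* genes, they were not kept out of the clustering. Their lineage differences therefore describe lineages formed from the same data. Of 9 partners and upstream factors, 8 were higher in astroglia than in the oligodendrocyte lineage and none was lower. Of all genes tested, 30.7% were higher and 31.0% lower. The median of the list was 1.21 against -0.02 over all genes tested. In the neuronal lineage compared with astroglia, 1 was higher and 6 were lower, with a median of -1.34, where 37.3% and 35.9% of all genes were higher and lower. *Sox9*, the partner of NFIA in gliogenesis, was at 487, 512, 396 and 478 CPM in astroglia and at 82.1, 96.2, 81.8 and 75.8 CPM in the neuronal lineage (-2.59 ± 0.147, adjusted p = 1.99e-08 in edgeR). *Zbtb20*, a zinc-finger factor of astrocytes and hippocampal neurons, was the member higher in the neuronal lineage, at 3220, 3170, 3734 and 4347 CPM against 1756, 1671, 997 and 1033 CPM in astroglia (1.35 ± 0.200, adjusted p = 7.66e-05). *Sox2* (-1.21 ± 0.0656) and the Notch effector *Hes5* (-4.44 ± 0.170) were lower.

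Of 9 astroglial genes described as NFI targets, 8 were lower in the neuronal lineage than in astroglia and 1, *Apcdd1*, was higher. Of all genes, 35.9% were lower and 37.3% higher in this comparison. The median was -3.81 against 0.04 over all genes. *Fabp7*, which encodes the brain fatty acid-binding protein, was at 18594, 17948, 17183 and 16143 CPM in astroglia and at 459, 505, 821 and 691 CPM in the neuronal lineage. *Slc1a3*, the glutamate transporter gene, gave -3.81 ± 0.139, *Mmd2* -2.97 ± 0.151 and the connexin gene *Gja1* -4.86 ± 0.294 in the same comparison. *Slc1a3*, *Gja1*, *Gfap*, *Aldh1l1* and *S100b* also served as markers when the types were named, so their differences are no test. Of the 4 others, which were not kept out of the clustering either, *Fabp7*, *Mmd2* and *Zcchc24* were lower in the neuronal lineage and *Apcdd1* was higher. In astroglia compared with the oligodendrocyte lineage, 7 of the 9 were higher and 1 was lower, against 30.7% and 31.0% of all genes. There *S100b* was at 32.8, 52.4, 35.3 and 42.3 CPM in astroglia and 135, 256, 132 and 150 CPM in the oligodendrocyte lineage. *Zcchc24* was at 99.9, 106, 129 and 138 CPM and at 118, 113, 158 and 162 CPM.

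Of 5 genes described as repressed by NFI in progenitors, 2 were higher and 3 lower in the neuronal lineage than in astroglia, with a median of -0.25, where 37.3% and 35.9% of all genes were higher and lower. *Sox9* and *Hes1*, which were among the lower ones, also belong to the partner list. *Ezh2*, the catalytic subunit of a repressive chromatin complex, was higher by 1.16 ± 0.0661, and *Hes1*, another Notch effector, was lower by -4.80 ± 0.149. *Bbx* was also lower, by -0.25 ± 0.0648 (adjusted p = 0.00405 in edgeR). Of 3 genes that depend on NFI in maturing neurons, the cell-adhesion gene *Cntn2* was higher in the neuronal lineage by 5.77 ± 0.185 and *Ephb1* by 0.62 ± 0.110, whereas *Cdh2* gave -0.16 ± 0.0799 (adjusted p = 0.0930). *Sox10* and the myelin genes *Mbp* and *Mag* were lower in astroglia than in the oligodendrocyte lineage, by -6.61, -7.17 and -6.93, and they too were markers.

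The promoters of these genes were searched for the NFI half-site TTGGCA, on either strand (TGCCAA on the other), and for the full site, TTGGC and GCCAA separated by 5 bases. In RefSeq promoter windows of GRCm38.p6, from 250 bases before to 50 bases after a start, 4640 of 32851 windows (14.1%) held the half-site and 12 (0.0365%) the full site. The half-site was found in windows of 2 of 7 partners, 2 of 8 astroglial targets and 2 of 2 repressed genes that had a window, in none of the 3 windows of the myelin list or the 2 of the neuronal list, and in none of 6 windows of the *Nfi* genes, where 3 of the 4 members had one. None of these windows of listed genes held the full site, and listed genes without a window were not searched. The matching stretches are shown with the half-site in capitals, on the strand of the gene, because they are the motif matches among the listed genes. They lie at chr5:142608840-142608869 (minus strand) for *Mmd2*, chr10:76253805-76253834 (plus) for *S100b*, chr6:47595251-47595280 (minus) for *Ezh2*, chr7:114745574-114745603 (plus) for *Insc*, chr4:22488458-22488487 (minus) for *Pou3f2* and chr1:191183284-191183313 (minus) for *Atf3*.
Mmd2: ccagccgggcgaTTGGCAgcgtgcgcccaa
S100b: ccttggcccccaTTGGCAgcctcagcctgc
Ezh2: accgcacgTTGGCAaaagaacaaagacagc
Insc: ccactccagatgTTGGCAtgtaggacacat
Pou3f2: gcgagcgggctcTGCCAAgagagcgggaga
Atf3: ttaagcgggctcccTGCCAAcgcgagggct
A match of 6 letters is a description of sequence, and binding was not measured here.

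Genotypes were then compared within each type over the 4 libraries. In 11 types of the 3 lineages, edgeR's quasi-likelihood test called 0 of 9286 to 14759 genes (0% in each type), and DESeq2 also called 0. In edgeR 7 to 27 genes had an unadjusted p under 0.05, far fewer than this threshold marks when no gene differs. The fit counted the difference between replicates as error, so 0 calls do not show that the genotypes were equal. None of the 44 tests of an *Nfi* gene passed. Their log2 differences of mutant over control ran from -0.25 to 0.34, and the lowest unadjusted p was 0.331, for *Nfia* in excitatory neurons (0.34 ± 0.311, adjusted p = 1.0). In astrocytes *Nfia* gave 0.13 ± 0.649, which shows how wide the error was with the replicates pooled. With the replicate as a block, 0 to 19 genes were called (0% to 0.151%), and the same *Nfia* test gave 0.35 ± 0.144 (unadjusted p = 0.0312, the only one of 44 under 0.05, and adjusted p = 0.999 in edgeR). No gene of the pathway lists was called in any type. Genotype differences were also compared between types in 40 tests of an *Nfi* gene over 10 pairs of types, and 0 were called by edgeR, with 0 at an unadjusted p under 0.05. Over all genes 0% were called in each pair except oligodendrocytes and OPCs (0.0157%).

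For *Nfia*, *Nfic* and *Nfix*, the difference between the mutant and the control library was not alike in the 2 replicates. *Nfia* in replicate 2 was higher in the mutant in 11 of 11 types, by 0.15 to 0.51 on the log2 scale (median 0.45), and in 9 types the 95% counting interval lay above 0. In replicate 1 it was higher in 4 of 11 types, with a median of -0.01, and 1 interval lay above 0 and 3 below. In astroglia as a whole, for example, *Nfia* was at 1434 and 1432 CPM in replicate 1 but at 509 and 674 CPM in replicate 2. In OPCs it was at 633 and 629 CPM, and at 306 and 436 CPM. The direction was thus shared by all types in replicate 2 and mixed in replicate 1.

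*Nfix* divided the replicates in the same manner. It was higher in the mutant in 11 of 11 types of replicate 2 (median 0.17) and in 1 of 11 types of replicate 1 (median -0.15), where 9 counting intervals lay below 0. *Nfib* was higher in the mutant in 9 and 10 of 11 types in replicates 1 and 2, with medians of 0.06 and 0.16, and *Nfic* in 5 and 10 of 11, with medians of -0.03 and 0.29. For *Nfib*, 4 and 8 counting intervals lay above 0 in replicates 1 and 2, and 0 lay below. For *Nfic*, 0 and 5 lay above 0, and 1 and 0 below. Over all cells of replicate 2, 58.5% of 1913 genes of at least 100 CPM lay as far from the median gene as *Nfix*, and 59.8% as far as *Nfib*. In replicate 1 the shares were 14.8% and 99.0%. The 11 types of a replicate come from the same pair of libraries, so their counts are not independent. Each pair is 1 library against 1, the intervals cover counting error only, and the mice in a pool cannot be separated.

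**Figure D5:**
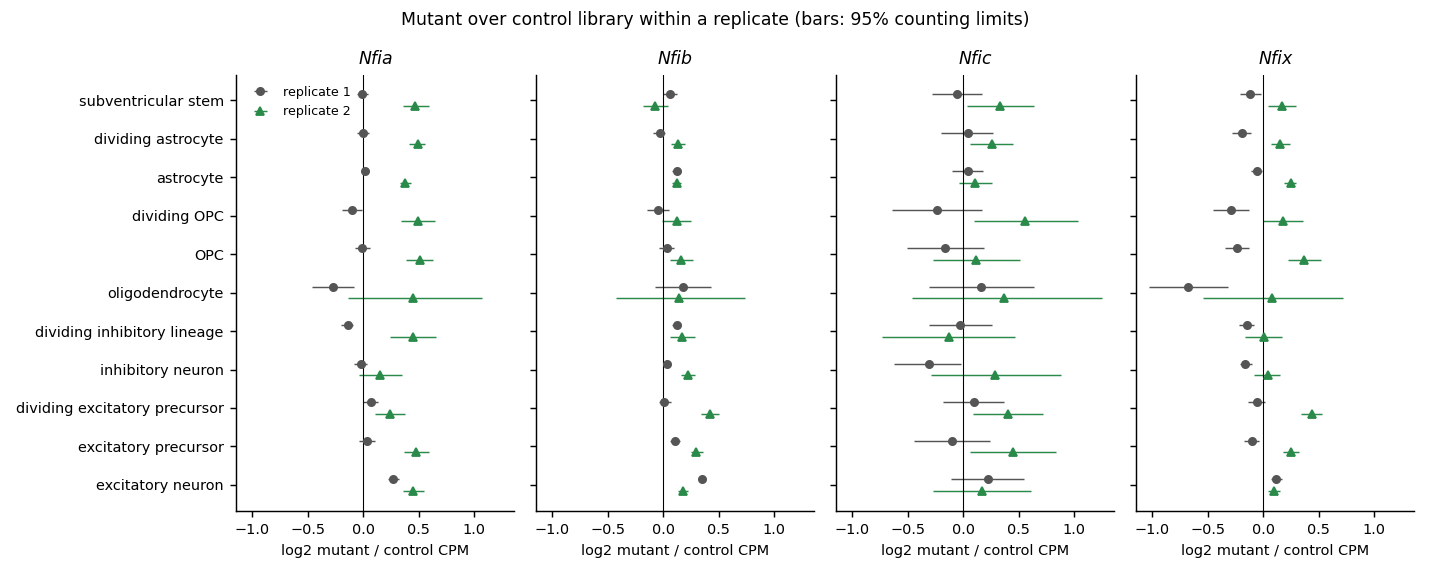
Log2 ratio of mutant to control CPM within replicate 1 (circles) and replicate 2 (triangles) for each *Nfi* gene and type; bars are 95% counting limits and the line at 0 marks equal levels. For *Nfia* all 11 triangles lie right of 0 (0.15 to 0.51), while the circles scatter around it (-0.27 to 0.27).

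Several measures moved with these differences. Over all cells of replicate 2, 14.1% of 1913 genes of at least 100 CPM lay as far from the median gene as *Nfia*. In replicate 1 the share was 83.2%. By type, the share in replicate 2 ran from 5.54% in OPCs to 63.0% in inhibitory neurons. By lineage it was 5.08% of 2026 genes in the oligodendrocyte lineage (*Nfia* 0.49) and 10.9% of 1847 in astroglia (0.40). In the neuronal lineage it was 9.92% of 1955 genes (0.44). In the cells with at most 5% mitochondrial counts, which numbered 1069 in the control and 1730 in the mutant of replicate 2, *Nfia* was at 561 and 743 CPM in astroglia and at 792 and 1102 CPM in the neuronal lineage, so the difference was as large there (0.41 and 0.48). In inhibitory neurons, however, it was 0.00 in those cells.

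Excitatory neurons, astrocytes and both groups of excitatory precursors had more *Nfia* and *Nfib* in the mutant of both replicates, but some of these differences were very small. In replicate 1, *Nfia* gave 0.02 in astrocytes, 0.03 in excitatory precursors, 0.07 in dividing ones and 0.27 in excitatory neurons. *Nfib* gave 0.12, 0.11, 0.01 and 0.35 in this order. Of the 11 *Nfia* counting intervals of replicate 1, only 1 lay above 0. Excitatory neurons held 1734 and 2092 CPM of *Nfia* in replicate 1 and 1319 and 1808 CPM in replicate 2. Their clusters were unequally filled, since the *Neurod6* cluster, poor in *Nfia* and *Nfib*, gave 185, 79, 12 and 11 of the 417, 290, 117 and 139 cells. Within the *Neurod1* cluster alone *Nfia* was at 2468 and 2424 CPM in replicate 1, no higher in the mutant, whereas it was at 1383 and 1890 CPM in replicate 2. *Nfib* in that cluster was at 5729 and 6209 CPM in replicate 1. In the *Neurod6* cluster of replicate 1 the mutant was higher, with 702 and 926 CPM of *Nfia* and 2115 and 2526 CPM of *Nfib*.

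The difference between replicates exceeded that between genotypes for *Nfia*. Over all cells, *Nfia* was lower in replicate 2 than in replicate 1 by -1.0 on the log2 scale, *Nfib* by -0.42, and *Nfix* was higher by 0.21. Of 1913 genes of at least 100 CPM, 11.9% were as low or lower than *Nfia* in this comparison. When these genes were split into 4 equal groups by intronic bases, the median was 0.28, 0.21 and 0.09 in the 3 groups with fewer and -0.83 in the group with the most, which includes *Nfia*, *Nfib* and *Nfix*. Of these members, *Nfix* was the one higher in replicate 2 over all cells. The cause of the difference between replicates was not tested. The same groups differed little between genotypes, with medians between -0.07 and -0.03 in replicate 1 and between -0.03 and 0.08 in replicate 2. Among genes that overlap the members, *E130114P18Rik*, on the other strand of *Nfia*, was counted with 26152 UMIs, or 12.4% of the number for *Nfia*, and *Gm11266* with 6429, or 2.17% of that for *Nfib*. Whether reads were exchanged between overlapping genes was not tested.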

How the data were processed

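Cells of 4 libraries (2 control, 2 mutant) were grouped by the labels. The authors aligned reads to mm10 with Cell Ranger (3.0 per the labels, 7.0.0 and 5.0.1 per the file headers for replicates 1 and 2) and deposited matrices of UMI counts, 1 per library, that had not been normalized. Reading of introns was not stated in the sources used here.

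Barcodes were kept if they had 2000 to 40000 UMIs, 1000 or more genes and a mitochondrial share of no more than 10%. Log-normalized values were scaled within a library and clustered (scanpy 1.11.5, leidenalg 0.10.2) on 2000 variable genes without the Nfi genes, 30 components, 15 neighbors and resolution 2. Clusters were named by fixed markers; resolution and naming rule were chosen with the cells in view, and 6 clusters (1527 cells, 8.66%) remained unnamed. Scrublet marked 2.12%, 2.44%, 0.0336% and 0% of the cells that passed these limits, so it did not work in replicate 2, and marked cells were kept.

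Counts were summed per library and type (at least 20 cells in each library), and the quasi-likelihood test of edgeR 4.0.16 (R 4.3.3) was applied after filterByExpr and TMM, with Benjamini-Hochberg adjustment over all genes and a threshold of 0.05. Genotype was the only term of its fit, and comparisons of lineages or types had the library as a block. The sources used here do not say whether libraries differed in litter or day, and p-values measure the spread between these libraries. The SE given with an edgeR difference is the size of that difference divided by the square root of the test's F statistic. Levels are CPM of the summed counts. Limits of ratios and shares are exact 95% limits that cover counting error only. Alternatives were DESeq2 1.42.0, its size factors, no filter, a mitochondrial limit of 5%, Scrublet, a replicate block, equal weights of types, no thinning and each library left out. The fits were tested on simulated data that held no difference between replicates. Gene positions came from GENCODE vM21, which matched 32158 identifiers (99.6%).

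The members and lists were chosen with earlier results of these data known. The text names the members, *Chd8*, the 5 genes with the most similar profile (at least 20 CPM in 1 type in every library) and up to 4 listed genes per list by counts. *Apcdd1*, *Zcchc24*, *Gfap*, *Aldh1l1*, *S100b*, *Atf3*, *Pou3f2* and *Insc*, the leading genes of clusters and the overlapping genes were named after their values were seen.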

Additional observations from a re-analysis of the deposited data

How the results depend on the processing

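Of 144 alternative values for the lineage differences, 133 kept their direction and side of the threshold, and of 224 for comparisons of types 197 did. With the types of a lineage weighted equally, the excess of astroglia over the oligodendrocyte lineage was 1.63 for *Nfia*, 1.69 for *Nfib* and 1.60 for *Nfix*, and that of the neuronal lineage 1.88 for *Nfia*, 3.56 for *Nfib*, 1.04 for *Nfic* and 3.40 for *Nfix*. With a library left out, the neuronal lineage over astroglia ran from -0.05 to 0.33 for *Nfia* and from -0.29 to 0.01 for *Nfic*. Astrocytes over stem-like cells in *Nfib* turned to -0.08 with DESeq2, -0.08 with its size factors and -0.23 without scaling, and ran from -0.08 to 0.07 with a library left out. Dividing astrocytes over astrocytes in *Nfia* turned to 0.08 without scaling and ran from -0.12 to 0.10. The alternatives for comparisons of types, and the absence of scaling for lineages, were chosen after seeing the data.

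Libraries of the same replicate number deviated together (correlations of 0.698 to 0.863 over 11 types), but there are only 2 pairs and the labels give no more than the number. The replicate block called 3 genes in OPCs, 1 in astrocytes, 7 in dividing OPCs, 1 in dividing astrocytes, 1 in excitatory neurons, 14 in excitatory precursors, 19 in inhibitory neurons and 15 in stem-like cells, against 0 without it, and changed no *Nfi* call. Without a filter on low counts 6 genes were called in dividing excitatory precursors, 8 in dividing inhibitory-lineage cells, 2 in excitatory precursors, 4 in oligodendrocytes and 1 in stem-like cells. Of 200 alternative genotype differences of the *Nfi* genes, 167 kept their direction and none was called. Signs turned with a mitochondrial limit of 5% for *Nfic* in OPCs (0.08) and *Nfia* in inhibitory neurons (-0.01), and for *Nfic* in inhibitory neurons without a filter (0.00) and without marked doublets (0.01). With a library left out, *Nfia* ran from -0.29 to 0.82 in OPCs, -0.55 to 1.03 in astrocytes, -0.76 to 0.89 in inhibitory neurons and -0.57 to 0.90 in oligodendrocytes. *Nfib* ran from -0.10 to 0.27, -0.11 to 0.31, -0.05 to 0.30 and -0.05 to 0.35 in these types. *Nfic* ran from -0.39 to 0.28 in OPCs, 0.00 to 0.13 in astrocytes, -0.34 to 0.28 in inhibitory neurons and -0.14 to 0.53 in excitatory neurons. *Nfix* ran from -0.10 to 0.21 in OPCs, -0.05 to 0.21 in astrocytes, -0.19 to 0.03 in inhibitory neurons, -0.69 to 0.12 in oligodendrocytes and -0.39 to 0.59 in excitatory neurons. The cause of these changes was not tested.

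Without thinning, the shares of cells with a UMI in astroglia, the neuronal lineage and the oligodendrocyte lineage were 97.9%, 79.5% and 88.3% for *Nfia*, 98.3%, 98.0% and 87.5% for *Nfib*, 53.2%, 31.5% and 28.4% for *Nfic* and 94.7%, 88.6% and 74.0% for *Nfix*. *Nfic* is limited by depth, with 14286 UMIs in all.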

Other observations

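Cells outside the 3 lineages also carried *Nfi* counts. Ependymal cells, which line the ventricles, held 850, 880, 438 and 575 CPM of *Nfia* in control and mutant of replicate 1 and of replicate 2, and 390, 364, 443 and 520 CPM of *Nfix*. Pericytes held 83.7, 63.9, 88.9 and 95.2 CPM of *Nfic*, and their *Nfix* was at 148, 76.2, 60.4 and 32.3 CPM. In fibroblasts, of which 18 to 32 were found per library, *Nfic* was at 124 to 209 CPM and *Nfix* at 147 to 219 CPM. Endothelial cells, 10 to 68 per library, held 111 to 130 CPM of *Nfic* and 19.4 to 99.9 CPM of *Nfix*. Fibroblasts and endothelial cells were few, and none of the groups outside the 3 lineages was tested.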
